A study of Mus musculus with 6 samples.

Results

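The genes described here are 9 transcripts of the choroid plexus epithelium, *Ttr*, *Folr1*, *Kl*, *Clic6*, *Otx2*, *Aqp1*, *Prlr*, *Enpp2* and *Slc4a5*, measured by RNA-Seq in mouse cerebellum. They were chosen by name as genes that mark this epithelium, and each matched 1 row of the deposited table, so that they make up 9 of its 53715 genes. Their level in each mouse was read as a measure of how much choroid plexus RNA each cerebellum sample held.

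Total RNA came from the fresh cerebellum of 3 control and 3 *Slc39a8*-NSKO mice, all male. The labels give the strain as C57BL/6 and the methods as C57BL/6J, and a legend gives the age as 4 weeks. In *Slc39a8*-NSKO mice, floxed *Slc39a8*, which encodes a metal ion transporter, was removed by Cre recombinase under the Synapsin I promoter, which is active in neurons. The labels call the control mice WT, whereas the study names mice with floxed *Slc39a8* as its controls, and the counts do not settle which is right. The methods give 3 mice per genotype as biological replicates, while a legend speaks of technical triplicates. If the latter held, the p values below would describe technical spread only. The counts on genes ranged from 14431260 to 20844267 per mouse. *Slc39a8* itself had 99, 46 and 44 counts in the control mice and 38, 40 and 41 in the *Slc39a8*-NSKO mice. The *Slc39a8*-NSKO mean was 56.78% of the control mean, and the genotypes did not overlap, though with few counts in each mouse. A lower level in *Slc39a8*-NSKO mice without overlap was found for 859 of the 16330 genes tested. The log2 fold change of *Slc39a8* was -0.83 (SE 0.237, edgeR adjusted p = 0.534), so the gene did not pass the test described below. Without control mouse 1, the highest mouse, this log2 fold change was -0.56.

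The choroid plexus is a tuft of secretory epithelium that hangs into the brain ventricles, and one of its branches lies in the fourth ventricle, directly beneath the cerebellum. Its cells secrete cerebrospinal fluid and form the barrier between blood and that fluid. They are rich in transthyretin, in ion transporters and water channels, and in carriers that bring folate and hormones into the brain. A cerebellum taken out whole can carry a variable piece of this tissue with it. In bulk RNA, more cells of this epithelium in a sample and more of a transcript in each cell cannot be told apart.

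The sequence just upstream of 4 members is shown because, over the 6 mice, *Kl*, *Aqp1* and *Prlr* followed the mean of the other members more closely than *Otx2* did. RefSeq promoter windows of GRCm38.p6 were at hand for 5 members, with 10 start sites among them. The 100 bases before a start are given 5′ to 3′ on the strand of the gene, and the letters GGGCGG or their complement CCGCCC, the box bound by SP1, are in capitals.
Kl (chr5:150952507-150952606, plus strand): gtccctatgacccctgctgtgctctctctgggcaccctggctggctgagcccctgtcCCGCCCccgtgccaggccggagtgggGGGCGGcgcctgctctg
Aqp1 (chr6:55336199-55336298, plus strand): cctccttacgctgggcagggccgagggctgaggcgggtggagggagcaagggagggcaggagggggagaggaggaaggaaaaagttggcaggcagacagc
Prlr (chr15:10177138-10177237, plus strand): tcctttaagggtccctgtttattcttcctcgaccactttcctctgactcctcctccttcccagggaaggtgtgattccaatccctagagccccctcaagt
Otx2 (chr14:48667645-48667744, minus strand): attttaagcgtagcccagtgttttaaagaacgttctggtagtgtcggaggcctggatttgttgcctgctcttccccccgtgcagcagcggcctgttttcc

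In composition, the stretches of *Prlr* and *Otx2* were close to each other, and those of *Kl* and *Aqp1* were richer in G and C. G and C made up 74% of the bases shown for *Kl*, 67% for *Aqp1*, 52% for *Prlr* and 53% for *Otx2*. Other starts of *Prlr* and *Otx2* are not shown. There the share was 53% and 40% for *Prlr* and 49%, 58% and 63% for *Otx2*, so this contrast depends on the start chosen. The core TAATCC, to which OTX-type homeodomain factors bind, was looked for on both strands in the 250 bases before each start. It lay in 1 of the 10 member windows, before another start of *Otx2*, and in 6.25% of all 32851 windows. The letters GGGCGG, on both strands, lay in 3 of the 10, those of *Kl*, *Aqp1* and *Slc4a5*, and in 32.7% of all windows. The letters TATAAA, on the strand of the gene, lay in 1 of the 10, the first *Otx2* window, and in 7.59% of all. These matches describe letters only.

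No member passed the test between genotypes, but 8 of the 9 had a higher mean in the *Slc39a8*-NSKO mice. Genotypes were compared by the edgeR quasi-likelihood test with Benjamini-Hochberg adjustment over 16330 genes, where a gene was called at an adjusted p below 0.05. It called 0.098% of all genes, 16 in number, and 0 of the 9 members, whose lowest adjusted p was 0.228. Limma-voom called 0 members, and so did DESeq2, which called 0.171% of the genes to which it gave an adjusted p. The median log2 fold change of the members was 0.35, with a range from -0.06 to 0.96, against a median of 0.0011 over all genes tested. A log2 fold change above 0 was found for 50.5% of all genes. In 4 members, *Folr1*, *Kl*, *Clic6* and *Enpp2*, the unadjusted p was below 0.05 with the higher level in *Slc39a8*-NSKO mice, as it was for 2.25% of all genes. In 1 member, *Folr1*, every *Slc39a8*-NSKO mouse lay above every control mouse, which held for 5.07% of all genes.

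*Slc39a8*-NSKO mouse 2 weighed heavily in these values. Without it the median log2 fold change of the members was 0.18, and without control mouse 2 it was 0.50. The summed level of the members was 1319, 1569 and 1096 CPM, that is, counts scaled by the TMM-normalized library size, in control mice 1, 2 and 3. In *Slc39a8*-NSKO mice 1, 2 and 3 it was 1523, 2094 and 1289 CPM. The log2 ratio of the group means of these sums was 0.30, and 0.08 without *Slc39a8*-NSKO mouse 2. The genotypes therefore overlapped in the sum, with control mouse 2 above *Slc39a8*-NSKO mice 1 and 3.

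**Figure D1:**
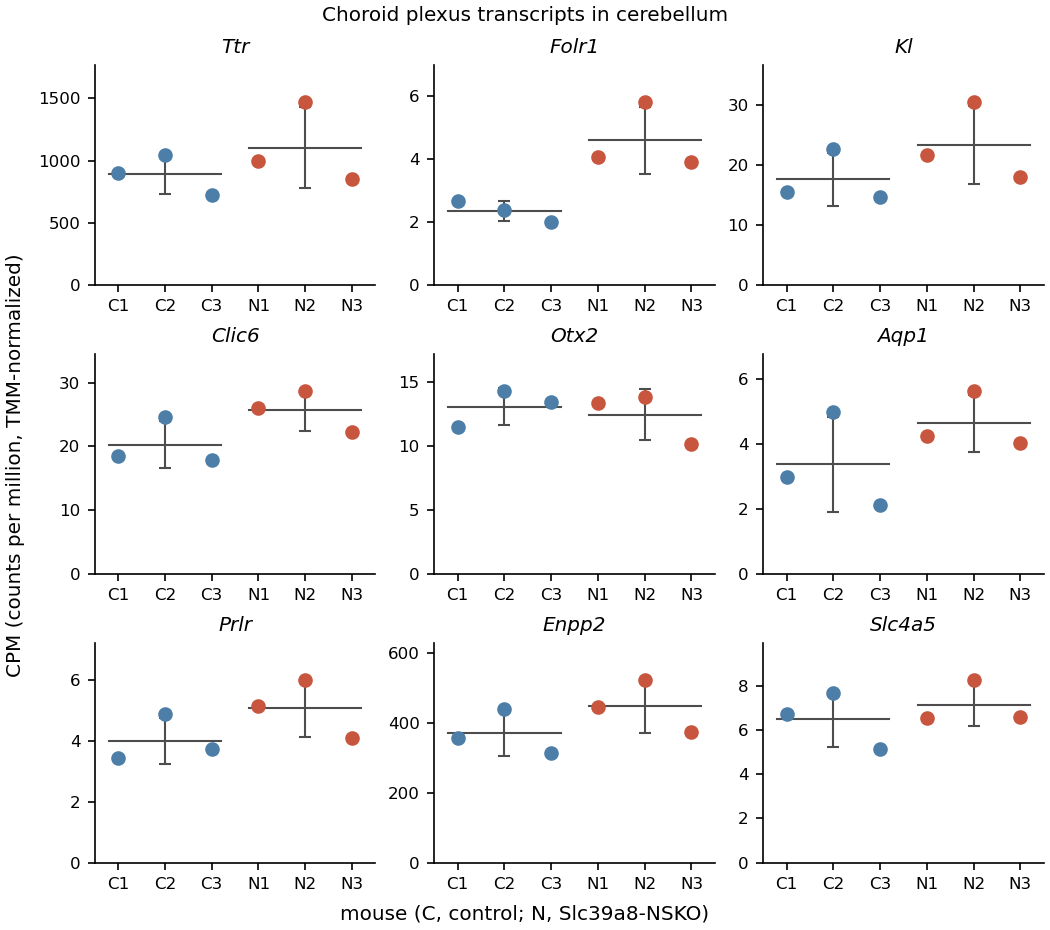
Level of each member in each mouse, in CPM on an axis that starts at 0, with control mice (C1 to C3) in blue and *Slc39a8*-NSKO mice (N1 to N3) in red, and with horizontal lines for group means and bars for SD (n = 3). *Slc39a8*-NSKO mouse 2 is the highest mouse in 8 of the 9 panels, and the genotypes separate only for *Folr1*.

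Among the secreted products, *Ttr* (ENSMUSG00000061808, chromosome 18, 20665280 to 20674321, plus strand) encodes transthyretin, which carries thyroid hormone and retinol-binding protein in cerebrospinal fluid. Its level was 902, 1047 and 725.3 CPM in the control mice and 996.2, 1473 and 847.3 CPM in the *Slc39a8*-NSKO mice. The highest and the lowest mouse differed by 2.03-fold, and *Slc39a8*-NSKO mouse 3 lay below the controls 1 and 2. The mean was 891.4 ± 161.1 CPM against 1105 ± 326.7 CPM (SD, n = 3), a log2 fold change of 0.31 (SE 0.162, edgeR adjusted p = 0.966). Without *Slc39a8*-NSKO mouse 2 this log2 fold change was 0.05. *Ttr* ranked 74 of the 16330 genes by mean CPM, and it made up from 65.4% to 70.3% of the summed members in every mouse.

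*Enpp2* (ENSMUSG00000022425, chromosome 15, 54838901 to 54952892, minus strand) encodes autotaxin, the secreted enzyme that makes lysophosphatidic acid. It was at 356, 440.2 and 312.3 CPM in the control mice and at 445.9, 522.9 and 372.5 CPM in the *Slc39a8*-NSKO mice. The genotypes overlapped, since control mouse 2 lay above *Slc39a8*-NSKO mouse 3. The log2 fold change was 0.28 (SE 0.119, edgeR adjusted p = 0.908) and ranged from 0.15 to 0.42 when any 1 mouse was left out. Per kilobase of exon, *Enpp2* was at 70.65 CPM and *Ttr* at 841.8 CPM, and the other members lay between 0.2964 and 5.872 CPM. As background, *Enpp2* is also made by cells of the oligodendrocyte lineage.

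Among the receptors and carriers, *Folr1* stood apart. It encodes folate receptor alpha (ENSMUSG00000001827, chromosome 7, 101858331 to 101870788, minus strand), which takes folate from blood across this epithelium. It was at 2.654, 2.364 and 1.992 CPM in the control mice, from 55, 34 and 31 counts. In the *Slc39a8*-NSKO mice it was at 4.055, 5.802 and 3.878 CPM, from 81, 113 and 73 counts. All 3 *Slc39a8*-NSKO mice lay above all 3 control mice. The mean was 2.337 ± 0.332 CPM against 4.578 ± 1.063 CPM (SD, n = 3), a 1.96-fold ratio. The log2 fold change was 0.96 (SE 0.219, edgeR adjusted p = 0.228), and it stayed between 0.75 and 1.07 when any 1 mouse was left out. Permuting its log2 CPM over the mice (exact test, two-sided) gave p = 0.1, the smallest that 3 mice against 3 allow.

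*Kl* (ENSMUSG00000058488, chromosome 5, 150952607 to 150993817, plus strand) encodes klotho, the co-receptor for the hormone FGF23. It was at 15.35, 22.6 and 14.65 CPM in the control mice and at 21.53, 30.45 and 17.85 CPM in the *Slc39a8*-NSKO mice. Control mouse 2 exceeded *Slc39a8*-NSKO mice 1 and 3, so the genotypes overlapped. The log2 fold change was 0.42 (SE 0.184, edgeR adjusted p = 0.908), and 0.18 without *Slc39a8*-NSKO mouse 2. *Prlr* (ENSMUSG00000005268, chromosome 15, 10177238 to 10349180, plus strand), the prolactin receptor, was at 3.426, 4.868 and 3.727 CPM in the control mice. In the *Slc39a8*-NSKO mice it was at 5.156, 6.007 and 4.09 CPM. Its log2 fold change was 0.36 (SE 0.196, edgeR adjusted p = 0.968), with *Slc39a8*-NSKO mouse 3 below control mouse 2. The annotated exons of *Prlr* share 203 bases with the gene model *Gm21973* on the same strand. The deposited counts of *Prlr* were whole numbers in every mouse, and how reads in the shared bases were assigned was not tested.

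The channels and transporters had log2 fold changes between 0.14 and 0.48. *Clic6* (ENSMUSG00000022949, chromosome 16, 92485736 to 92541243, plus strand), a chloride intracellular channel protein, was at 18.48, 24.62 and 17.8 CPM in the control mice and at 26.03, 28.75 and 22.2 CPM in the *Slc39a8*-NSKO mice. Only control mouse 2 and *Slc39a8*-NSKO mouse 3 crossed over. Its log2 fold change was 0.35 (SE 0.123, edgeR adjusted p = 0.838). *Aqp1* (ENSMUSG00000004655, chromosome 6, 55336432 to 55348555, plus strand) encodes the water channel of the ventricular face of the epithelium. It was at 2.992, 5.007 and 2.12 CPM in the control mice and at 4.255, 5.648 and 4.037 CPM in the *Slc39a8*-NSKO mice. The control mice differed among themselves by more than the genotypes did, and the log2 fold change was 0.48 (SE 0.261, edgeR adjusted p = 0.968). *Slc4a5* (ENSMUSG00000068323, chromosome 6, 83219828 to 83304945, plus strand) encodes a sodium bicarbonate cotransporter. It was at 6.708, 7.649 and 5.14 CPM against 6.558, 8.266 and 6.587 CPM, and the genotypes overlapped. The log2 fold change was 0.14 (SE 0.166, edgeR adjusted p = 0.994), and without control mouse 3 it was no longer above 0.

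*Otx2* (ENSMUSG00000021848, chromosome 14, 48657677 to 48673819, minus strand), the homeodomain factor that is needed for the choroid plexus to form and is also made in the granule cell lineage of the cerebellum, was the exception. It was at 11.49, 14.32 and 13.43 CPM in the control mice and at 13.37, 13.86 and 10.15 CPM in the *Slc39a8*-NSKO mice. Its highest mouse was control mouse 2 and its lowest *Slc39a8*-NSKO mouse 3. The log2 fold change was -0.06 (SE 0.133, edgeR adjusted p = 0.994), and it turned above 0 without control mouse 2 or without *Slc39a8*-NSKO mouse 3. *Otx2* exons share 168 bases with *Gm49154* on the same strand and 154 bases with *Otx2os1* on the other, and *Enpp2* exons share 345 bases with *Gm26684* on the other strand. The deposited counts of *Otx2* were whole numbers in every mouse, and those of *Enpp2* in all but 1. The strand setting of the counting was not given in the sources used here, so reads in the shared stretches cannot be assigned to 1 gene with certainty.

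**Figure D2:**
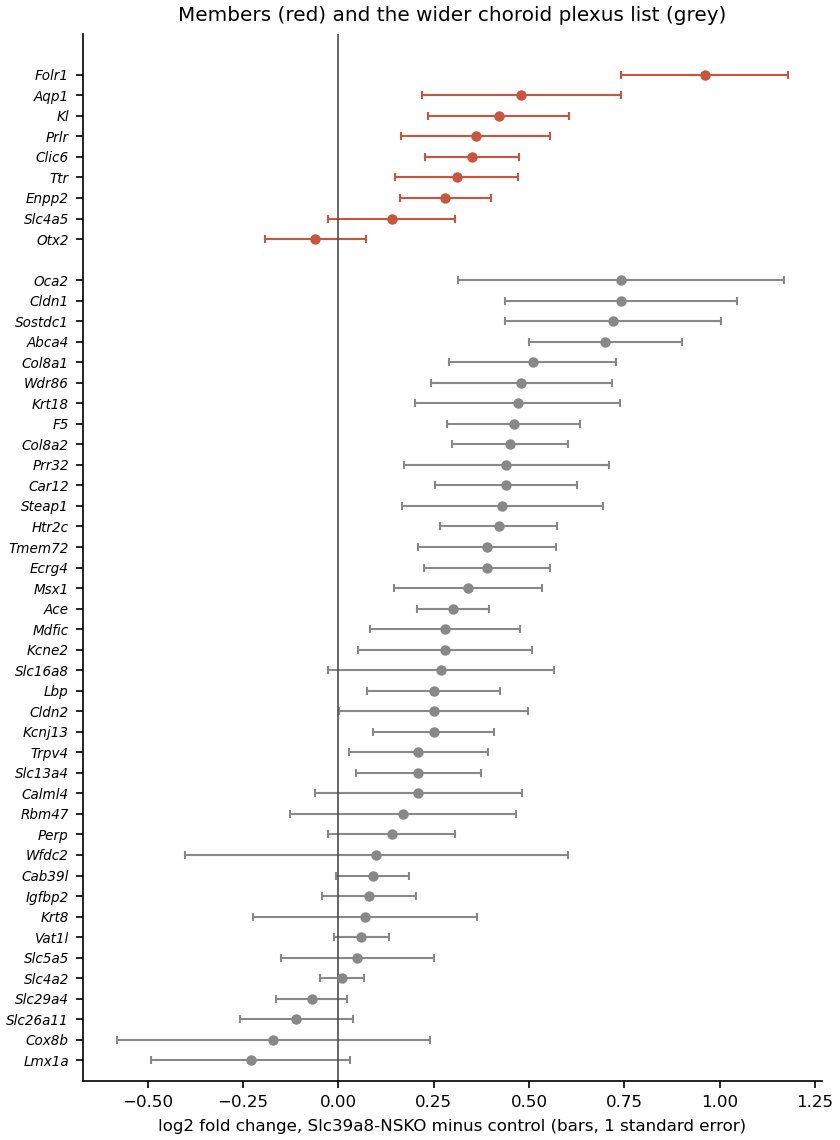
Log2 fold change of each member (red) and of each tested gene of a wider choroid plexus list (grey), *Slc39a8*-NSKO minus control. Bars are 1 standard error derived from the edgeR test statistic. The members run from -0.06 for *Otx2* to 0.96 for *Folr1*, and 35 of the 39 wider genes lie above 0.

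The order of the mice was shared by most members. *Slc39a8*-NSKO mouse 2 was the highest mouse in 8 of the 9, with *Otx2* the exception, and control mouse 3 was the lowest in 7 of the 9. Over all genes tested, *Slc39a8*-NSKO mouse 2 was the highest in 16.0% and control mouse 3 the lowest in 14.5%. Control mouse 2 was the highest control mouse in 8 members, all but *Folr1*. The mean of the members' log2 CPM, centred on each gene's mean, was -0.23, 0.11 and -0.40 in control mice 1, 2 and 3. In *Slc39a8*-NSKO mice 1, 2 and 3 it was 0.13, 0.46 and -0.07. In both genotypes this mean was highest in the mouse numbered 2 and lowest in that numbered 3. Between mice of the same number, 1, 2 and 3, it differed by 0.36, 0.35 and 0.33, though what the numbers stand for is not given. The control mice alone spanned more than the distance between the genotype means. The biological coefficient of variation of *Ttr* was 0.14 against 0.055 for genes of like abundance, that of *Enpp2* 0.105 against 0.055, and that of *Kl* 0.152 against 0.076. *Aqp1* was at 0.199 against 0.142 and *Clic6* at 0.1 against 0.072. The other 4 members lay close to genes of like abundance, *Folr1* at 0.153 against 0.15, *Prlr* at 0.141 against 0.135, *Slc4a5* at 0.124 against 0.118 and *Otx2* at 0.105 against 0.093. From 72.4% of all genes for *Otx2* to 92.9% for *Aqp1* had a smaller SD within genotype than the member.

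As a description over 6 mice, which share their libraries, Pearson's r between each member and the mean of the other 8 was 0.989 for *Enpp2*, 0.981 for *Kl*, 0.967 for *Clic6*, 0.936 for *Ttr*, 0.93 for *Prlr* and 0.91 for *Aqp1*. It was 0.849 for *Slc4a5*, 0.724 for *Folr1* and 0.318 for *Otx2*. Without control mouse 3 and *Slc39a8*-NSKO mouse 2, r over the 4 mice left was still 0.966 for *Enpp2* and 0.976 for *Kl*, but -0.041 for *Folr1* and 0.306 for *Slc4a5*. It was 0.704 for *Ttr* and 0.633 for *Otx2*, so that *Otx2* stood apart over all 6 mice but not over these 4.

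**Figure D3:**
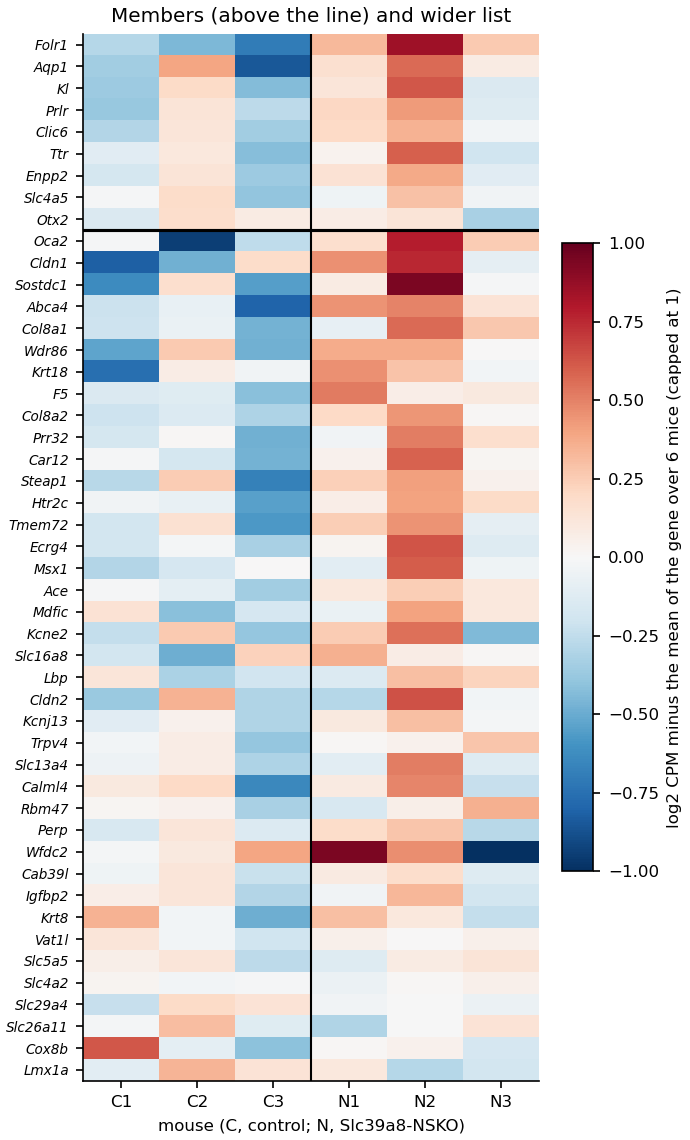
Log2 CPM of each member (above the line) and each tested wider-list gene, minus the mean of that gene over the 6 mice, in control (C1 to C3) and *Slc39a8*-NSKO (N1 to N3) mice, with colours capped at 1. The column of *Slc39a8*-NSKO mouse 2 is the reddest and that of control mouse 3 the bluest among the members, with mean values of 0.46 and -0.40.

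*Ttr* was used next as a common scale, and each other member was given per 1000 CPM of *Ttr* in the same mouse. Because *Ttr* is itself a member, this scale does not separate the amount of tissue from the level in each cell. The share of all genes whose genotypes do not overlap on this scale was not taken. The wider choroid plexus genes were not put on it either, so whether *Folr1* differs from them in this was not tested. *Folr1*, whose genotypes did not overlap before this scaling either, was the only member of the 8 without overlap. It was at 2.94, 2.26 and 2.75 in the control mice and at 4.07, 3.94 and 4.58 in the *Slc39a8*-NSKO mice. The mean was 2.65 ± 0.352 against 4.2 ± 0.336 (SD, n = 3), a ratio of 1.58, with p = 0.1 in the exact two-sided permutation test. Any gene without overlap has this p with 3 mice against 3. *Enpp2* was at 415 per 1000 in the controls and 414 in the *Slc39a8*-NSKO mice, and *Kl* at 19.6 and 21.1. *Otx2* was at 15 and 11.6, with overlap between the genotypes, as in the remaining 4 members, whose ratios lay between 0.915 and 1.17. This ratio takes out the level that *Ttr* shares with each gene and does not compare levels between genes.

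**Figure D4:**
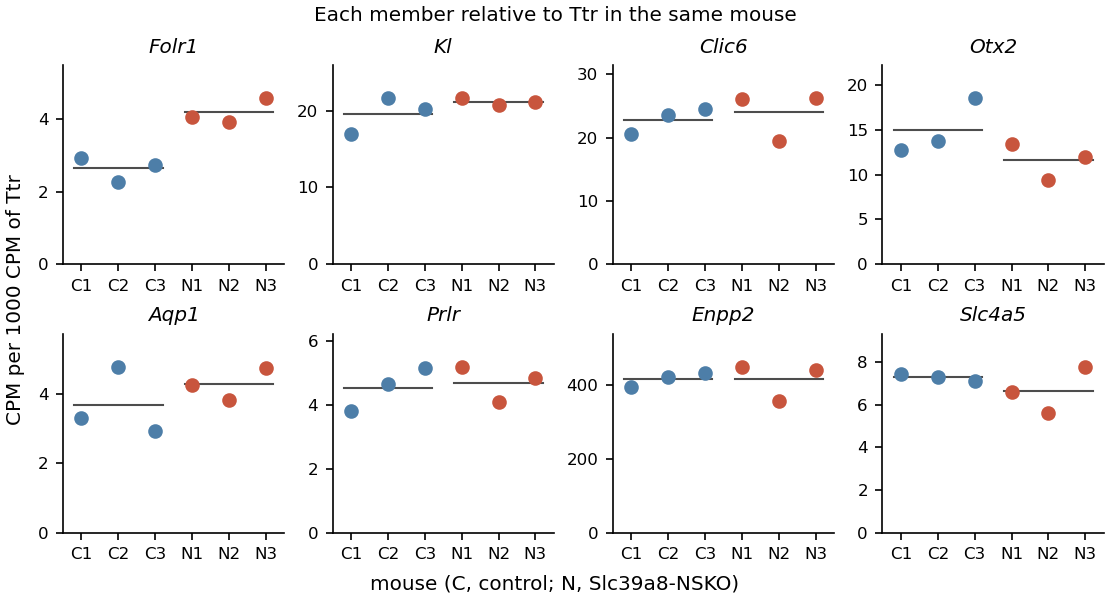
CPM of each member other than *Ttr* per 1000 CPM of *Ttr* in the same mouse, from 0, with lines for the group means of 3 mice. The 3 *Slc39a8*-NSKO mice lie above the 3 control mice for *Folr1*, at 3.94 to 4.58 against 2.26 to 2.94, and overlap with them in the other panels.

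A wider list of 40 choroid plexus genes showed the same mouse order at lower amplitude. Of these, 39 were tested, 35 had a log2 fold change above 0 and 4 below, and the median was 0.27. None was called by edgeR, DESeq2 or limma-voom. In edgeR the lowest adjusted p was 0.537, for *Abca4*. In 11 genes the unadjusted p was below 0.05, all of them higher in *Slc39a8*-NSKO mice, as it was for 2.25% of all genes. In 7 genes every *Slc39a8*-NSKO mouse lay above every control mouse, which held for 5.07% of all genes. In none did every *Slc39a8*-NSKO mouse lie below every control mouse, which held for 859 of the 16330 genes tested. *Slc39a8*-NSKO mouse 2 was the highest mouse in 25 of the 39, and control mouse 3 the lowest in 22. *Abca4*, a lipid transporter, was at 3.668, 4.033 and 2.442 CPM in the control mice and at 5.807, 6.007 and 4.675 CPM in the *Slc39a8*-NSKO mice. Its log2 fold change was 0.70 (SE 0.2). The most abundant genes of the list had values near 0. *Vat1l*, *Slc4a2*, which encodes the anion exchanger AE2, and *Slc29a4*, a monoamine transporter, had log2 fold changes of 0.06, 0.01 and -0.07. Their highest mice were control mouse 1, *Slc39a8*-NSKO mouse 3 and control mouse 2, so they did not share the mouse order of most members.

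Genes with the pattern most like the members were looked for among 1956 tested genes whose highest and lowest mouse differed by at least 1 on the log2 CPM scale. By Pearson's r over 6 mice with the mean of the members, the leading ones were *Smim27* (0.976), *Tmem72* (0.974), *Mfrp* (0.969), *Sostdc1* (0.961), *Tuba1c* (0.96), *A330094K24Rik* (0.951), *Steap1* (0.942), *Psmb9* (0.939), *Ccdc103* (0.93) and *Sema3b* (0.93). They were followed by *9630001P10Rik*, *Gm14434*, *Samd11*, *Tmem37* and *Abca4*, with r from 0.91 to 0.879. Of these 15, 4 belong to the wider list, *Tmem72*, *Sostdc1*, *Steap1* and *Abca4*. The list had 11 genes among the 1956, and the lowest of them were *Krt18* at rank 177, *Cldn1* at 243, *Oca2* at 347 and *Wfdc2* at 594. *Sostdc1*, an inhibitor of BMP and WNT signalling, was at 2.316, 4.033 and 2.442 CPM in the control mice and at 3.805, 6.88 and 3.559 CPM in the *Slc39a8*-NSKO mice.

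Markers of neighbouring tissues were read beside the members. The mean centred log2 CPM of 17 ependymal and cilia genes was highest in *Slc39a8*-NSKO mouse 2, at 0.19, and lowest in control mouse 2, at -0.22. Their median log2 fold change was 0.11, with 12 of 17 above 0, and *Dnah11*, an axonemal dynein, had the lowest adjusted p of the list (log2 fold change -0.38, SE 0.086, edgeR adjusted p = 0.228). *Pltp*, a lipid transfer protein, and *Foxj1*, the master factor of motile cilia, had log2 fold changes of 0.01 and 0.22. Of 16 meningeal and fibroblast genes, 12 had a log2 fold change above 0, with a median of 0.10, and 9 were highest in *Slc39a8*-NSKO mouse 2. *Igf2*, a growth factor made in meninges and choroid plexus stroma, was at 96.03 ± 2.974 CPM against 114.2 ± 19.03 CPM (SD, n = 3, edgeR adjusted p = 0.860), and *Ptgds*, made by meninges and choroid plexus, at 859.4 ± 55.17 CPM against 933.7 ± 145.8 CPM. *Cemip* had a log2 fold change of 0.02. The summed level of the meningeal list was 1054 to 1165 CPM in the control mice and 1072, 1418 and 1170 CPM in *Slc39a8*-NSKO mice 1, 2 and 3. By this sum, most of which was *Ptgds*, the meningeal list was thus highest in the same mouse as the members. Its mean centred log2 CPM was also highest there, at 0.24, though not every gene of the list was. The part of these genes in the result was not tested.

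**Figure D5:**
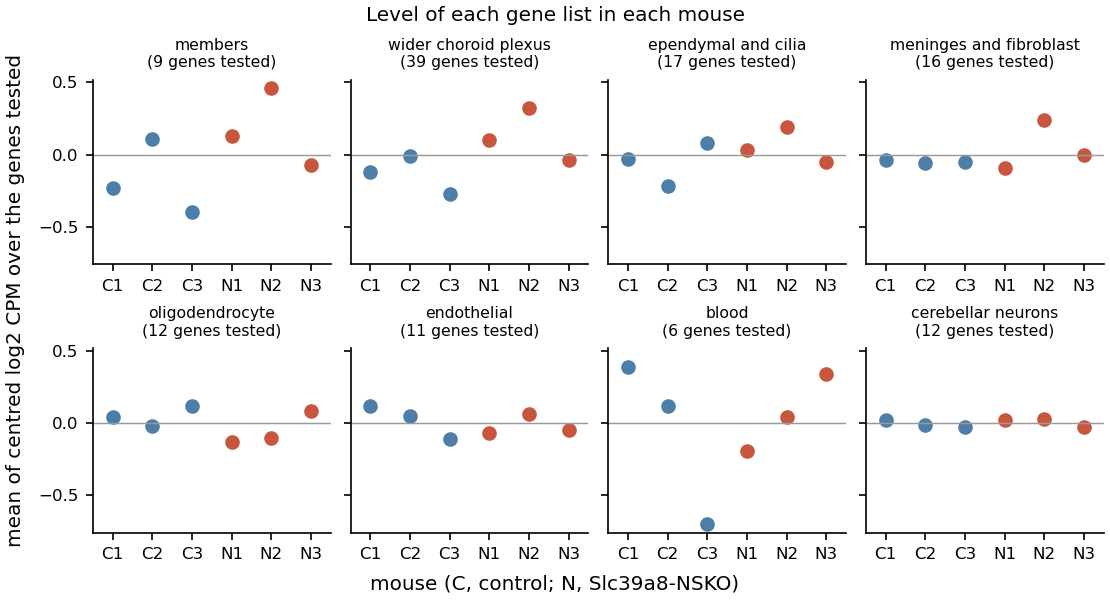
Mean of centred log2 CPM over the tested genes of each list in control (C1 to C3, blue) and *Slc39a8*-NSKO (N1 to N3, red) mice, on a common axis. The members span -0.40 to 0.46, the wider list -0.27 to 0.32, and the 12 cerebellar neuron genes lie close to 0 in every mouse.

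The cerebellar neuron list (*Car8*, *Cbln3*, *Calb1* and 9 others), which marks the labelled tissue, was high in every mouse. Its sum was 9751 to 10310 CPM, its median log2 fold change 0.01, and 8 of the 12 genes were above 0. *Car8*, *Cbln3* and *Calb1* had log2 fold changes of 0.05, 0.05 and 0.01. The 12 oligodendrocyte genes were all below 0, with a median of -0.07. The myelin genes *Mbp* and *Mobp* had log2 fold changes of -0.07 and -0.10. The 6 tested blood genes had a median of 0.07, with a sum from 235.3 CPM in control mouse 3 to 556.9 CPM in *Slc39a8*-NSKO mouse 3, an order unlike that of the members. The globin genes *Hbb-bs*, *Hba-a2* and *Hba-a1*, of which the latter pair are near-identical copies, had log2 fold changes of 0.08, 0.07 and 0.17. The 11 tested endothelial genes had a median of -0.06, with -0.04 for *Flt1*, -0.07 for *Slco1a4* and -0.06 for *Ly6c1*. Of 16 brainstem and midbrain genes, 8 never exceeded 3 counts in a mouse, and the 4 tested were below 0 with a median of -0.15, among them *Slc6a5* (-0.04), *Th* (-0.09) and *Nts* (-0.21). A pair of genes of this list below the filter, named after their values were seen, had higher counts in *Slc39a8*-NSKO mice. *Dbh*, which makes noradrenaline, had 2, 2 and 0 counts in the control mice and 10, 8 and 20 in the *Slc39a8*-NSKO mice. *Slc6a2*, the noradrenaline transporter, had 2, 3 and 2 counts against 7, 8 and 12. In both, the genotypes did not overlap, in contrast to *Th*, which makes the precursor of noradrenaline, and *Slc39a8*-NSKO mouse 3 was the highest mouse, unlike in the members. Every *Slc39a8*-NSKO mouse lay above every control mouse in 5.07% of the genes tested, and this share was not taken below the filter. Summed over the 16 listed brainstem and midbrain genes, the level was 43.05, 31.71 and 36.11 CPM in control mice 1, 2 and 3. In *Slc39a8*-NSKO mice 1, 2 and 3 the sum was 39.75, 35.32 and 34.05 CPM, so the list as a whole overlapped between genotypes. The part of *Dbh* and *Slc6a2* in the result was not tested. Of 12 pineal genes, 6 never exceeded 3 counts in a mouse, and the 2 tested, *Rom1* and *Chrna3*, had log2 fold changes of 0.03 and -0.19. No gene of the neighbouring tissue and cell type lists was called with the filter on low counts. Without it 3 were, *Dbh* (edgeR adjusted p = 0.0185), *Igf2* (0.0162) and *Dnah11* (0.0173), the last of them lower in *Slc39a8*-NSKO mice. That setting called 178 of 27187 genes, 112 of them lower in *Slc39a8*-NSKO mice.

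The partners of the members in their pathways, most of which other brain cells also make, gave no call. The medians were 0.02 for 9 tested genes of thyroid hormone and retinol carriers, such as *Thra*, and -0.01 for 15 of folate transport and use, such as *Aldh1l1*. For the klotho and FGF23 genes, such as *Fgfr1*, the median of 7 was 0.02. For prolactin signalling it was 0.03 over 7 genes. For the lysophosphatidic acid receptors and phosphatases, such as *Lpar1* and *Plpp3*, it was -0.06 over 6. The 21 fluid secretion genes had a median of 0.03, with 17 above 0. The lists share genes: *Kcnj13*, *Kcne2*, *Car12*, *Trpv4* and *Slc4a2* are also in the wider choroid plexus list. *Slc4a2*, *Slc4a7* and *Slc4a10* are also among the listed paralogs of the members. *Fgfr1* was at 176.3 ± 7.66 CPM against 192.9 ± 4.586 CPM (SD, n = 3, edgeR adjusted p = 0.875). The sodium pump subunits *Atp1b1* and *Atp1b2* had log2 fold changes of 0.00 and 0.03. Among the other abundant partners, the log2 fold change was 0.13 for the deiodinase *Dio2* and 0.02 for the thyroid hormone carrier *Slco1c1*. It was 0.00 for *Mthfd1* and -0.05 for *Shmt2*, both of folate metabolism. The proteases *Bace1* and *Adam10*, which can shed klotho, were at -0.03 and 0.02. In prolactin signalling, *Stat5b*, *Jak2* and *Socs2* were at 0.03, 0.08 and 0.16. For lysophosphatidic acid, *Plpp3*, *Lpar1* and *Plpp1* were at 0.08, -0.12 and 0.06. *Prl* itself never exceeded 3 counts.

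The closest relatives of the members stood at very different levels. Of 33 listed paralogs, 23 were tested, of which 9 had a log2 fold change above 0 and 14 below, with a median of -0.02. Per kilobase of exon, *Aqp4*, the astrocyte water channel, was at 45.0 times the level of *Aqp1*, and *Slc4a4*, another bicarbonate cotransporter, at 33.0 times that of *Slc4a5*. *Clic4* was at 4.77 times *Clic6* and *Ghr*, the growth hormone receptor, at 2.19 times *Prlr*. By contrast, *Folr1*, *Kl*, *Otx2* and *Enpp2* exceeded the most abundant of their listed paralogs, with *Folr2* at 0.182 times *Folr1*, *Enpp5* at 0.598 times *Enpp2*, *Klb* at 0.024 times *Kl* and *Otx1* at 0.0161 times *Otx2*. The log2 fold changes of the tested ones among these paralogs lay between -0.09 and 0.20, and none was called.

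Without a filter on low counts, 5 members were called, *Ttr* (edgeR adjusted p = 3.79e-06), *Folr1* (0.00264), *Kl* (0.00377), *Clic6* (0.031) and *Enpp2* (0.000268). That setting called 0.243% of all genes as higher in *Slc39a8*-NSKO mice. Their log2 fold changes hardly moved from those above, and the cause of the added calls was not tested.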

How the data were processed

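Per the labels and the methods, total RNA from cerebellum was made into cDNA with oligo-dT and sequenced. The submitters' processing notes name FastQC, STAR, RSEM and DESeq2, and the build mm10, without versions. As deposited, each value is the expected count of a gene in a mouse, which the authors did not scale for library size or gene length. The labels name a directional library kit and the methods one without that word, and the strand setting of the counting was not given in the sources used here. All columns were used. Of the rows, 92 are spike-in sequences, with 0 to 5 counts per mouse in all, and were left out. The GENCODE annotation of GRCm38 held 53620 of the 53715 genes, 51464 of them in the same version, and gave names, positions and exon lengths.

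Expected counts were rounded and tested with edgeR 4.0.16 in R 4.3.3 (glmQLFit, TMM, filterByExpr, no covariate, Benjamini-Hochberg over 16330 genes, threshold 0.05). The SE of a log2 fold change was derived from this test, as its absolute value over the square root of the F statistic. The test was checked on simulated data first. CPM used TMM-normalized library sizes, and log2 CPM a prior count of 2. Single genes were also compared with exact two-sided permutation tests. DESeq2 1.42.0, limma-voom (limma 3.58.1), RLE size factors, library size alone, no filter, at least 10 counts in every mouse, unrounded counts, a replicate block and leaving out each mouse were the alternatives. No interval covers more than counting and mouse-to-mouse spread at these depths.

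The genes named were all 9 members, the 3 genes of highest mean CPM and any called gene in each list, the most abundant paralog of each member, the 15 genes most like the members, and *Slc39a8*. A few more, such as *Abca4*, *Prl* and the genes at the lowest adjusted p, were named after their values were seen. Some genes that the rule would name are not reported here. The members and lists were chosen with earlier results of these data known, and the letters GGGCGG and TATAAA were added after seeing the upstream sequences. RefSeq held no promoter window for *Ttr*, *Folr1*, *Clic6* and *Enpp2* in the table used here.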

Additional observations from a re-analysis of the deposited data

How the results depend on the processing

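The number of members called was 0 under DESeq2, limma-voom, RLE size factors, library size alone, the filter of at least 10 counts in every mouse, unrounded counts and each removal of 1 mouse. It was 5 with no filter on low counts, and the wider list then had 1 called gene, *Abca4*, and the ependymal, meningeal and brainstem lists 1 each. With the replicate number as a block it was 1, *Enpp2* (edgeR adjusted p = 0.0244). The labels do not say what a replicate number stands for, and the main test did not pair the mice by it. Over all genes tested, the deviations of same-numbered mice correlated at 0.142, 0.116 and 0.01. Those of mice with different numbers correlated at -0.177 to 0.067, and these values do not settle whether the mice were paired. Mice numbered 1 and 2 correlated best with their own number, and control mouse 3 with *Slc39a8*-NSKO mouse 1 (0.036). Within numbers 1, 2 and 3 the mean centred log2 CPM of the members differed by 0.36, 0.35 and 0.33, each higher in the *Slc39a8*-NSKO mouse. Whether the numbers mark shared handling is not known. The log2 fold change of *Otx2* became 0.00761 when control mouse 2 was left out and 0.065 when *Slc39a8*-NSKO mouse 3 was, in a range from -0.152 to 0.065 over the removals of 1 mouse. That of *Slc4a5* became -0.000303 without control mouse 3, in a range from -0.000303 to 0.258. Of 126 member values under the alternatives, 117 kept direction and side of the threshold, 6 passed it and 3 changed sign. The cause was not tested. Over all genes, 16 were called in the main test, 37 by DESeq2, 178 with no filter, 41 with the block, 38 when control mouse 1 was left out and 9 when *Slc39a8*-NSKO mouse 2 was. Counts of 31 to 113 for *Folr1* and 33 to 110 for *Aqp1* limit the precision of these low members.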
